A study of Mus musculus with 6 samples.

Results

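The genes described here encode 10 surface proteins that are used to sort stem cells, progenitors or tumour-initiating cells: Cd24a, Cd44, Cd34, Ly6a, Thy1, Prom1, Pdpn, Procr, Eng and Nt5e. They were taken by name from 14766 gene annotations in the files. Reads carried the annotation of 9 of the 10, and Thy1 had none. The study sorted Mvt1 cells, a mouse mammary epithelial cancer line of the FVB/N strain, by surface staining for CD24 into CD24- cells (no CD24 on the surface) and CD24+ cells (CD24 on the surface). Messenger RNA was sequenced from 3 plates of adherent cells of each group, grown in the same medium with no other treatment. The study gives the CD24+ cells as the more tumorigenic subset. Every cell comes from 1 cell line, so the plates are no substitute for separate tumours or animals, and no independent sorts are described. The p-values below therefore measure the spread between plates, and what follows CD24 cannot be told apart from other differences between the sorted groups.

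Cd24a encodes a small mucin-like protein held to the membrane by a glycosylphosphatidylinositol (GPI) lipid anchor. In breast tissue it is used together with CD44: in human breast cancer, cells high in CD44 and low in CD24 are a common definition of tumour-initiating cells, whereas mouse mammary stem and progenitor cells are usually sorted as CD24+ cells and divided by integrins. Cd44 is the hyaluronan receptor, and its messenger RNA is spliced into a standard form or into longer forms that carry variable exons. Cd34, Ly6a (Sca-1), Thy1 and Prom1 (CD133) are markers of haematopoietic, mesenchymal or epithelial progenitors, Pdpn and Procr mark subsets of stromal and mammary cells, and Eng (CD105) and Nt5e (CD73) are part of the usual definition of cultured mesenchymal stromal cells. None of these antibodies was used for the sort other than that to CD24.

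The sequences shown for Cd24a and Cd44 come from GENCODE M21 transcripts. The coding sequence of Cd24a is shown because the sort was made on its protein, although most reads of the gene lay in its 3′ UTR. Capitals mark the 47-nt coding read seen most often (bases 92 to 138), which had 18 reads in the CD24+ libraries and 0 in the CD24- libraries. All reads whose middle base lay in coding sequence numbered 277 in the CD24+ and 17 in the CD24- libraries, so that 0 carries little weight. For Cd44, the first line joins the last 30 bases of exon 5 (lower case) to the first 30 of exon 16 (capitals), the junction that defines the standard form but was not itself counted, and the second is exon 15, the variable exon with the most reads.
Cd24a coding sequence: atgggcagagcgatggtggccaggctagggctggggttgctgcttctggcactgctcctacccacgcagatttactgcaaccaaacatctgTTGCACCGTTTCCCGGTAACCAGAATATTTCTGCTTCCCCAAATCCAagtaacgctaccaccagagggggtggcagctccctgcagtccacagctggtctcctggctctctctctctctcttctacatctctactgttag
Cd44 standard-form join: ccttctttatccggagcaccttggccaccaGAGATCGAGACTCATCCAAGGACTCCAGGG
Cd44 exon 15: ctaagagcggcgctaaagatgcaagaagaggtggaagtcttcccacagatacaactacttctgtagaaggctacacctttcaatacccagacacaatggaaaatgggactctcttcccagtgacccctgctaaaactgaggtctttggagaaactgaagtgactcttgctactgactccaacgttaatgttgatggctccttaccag

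The libraries held 6491833 to 19100844 gene reads, the fewest in CD24+ replicate 1. A count of 0 allows a level of up to 0.157 to 0.462 CPM (reads per 1000000 gene reads) in a library, from 3 reads, for counting error only. Of 11125 genes tested with edgeR's quasi-likelihood test, 46.1% were called at an adjusted p under 0.05, 23.8% higher and 22.3% lower in CD24+ cells, and in 57.3% the groups did not overlap. The lists of cell type marker genes, the cells' own epithelial type included, differed from each other in direction. Of 12 luminal and general epithelial markers 5 were tested, and 4 of them fell, among them Krt8 and Krt18, and Cldn3 rose, whereas Epcam and Cdh1 had 6 and 2 reads in all. Their summed level was 1942 to 2124 CPM in CD24- and 818 to 951 CPM in CD24+ libraries. Of 9 tested fibroblast and mesenchymal markers 8 rose, with summed levels of 4606 to 5395 CPM and 6041 to 6820 CPM. Without CD24+ replicate 2 or 3, and on quantile-normalized values, 6 were called higher. Their median log2 fold change was 1.71. Pdgfrb, among the largest rises with 3.79, changed from 4.81 ± 1.24 to 66.6 ± 14.7 CPM (SD, n = 3). Both tested haematopoietic markers, Cd68 and Itgam, fell, with summed levels of 46.9 to 80.9 CPM and 7.34 to 9.44 CPM, while Ptprc had 2 reads in all. These sums were mostly Cd68, at 64.6 ± 18.4 and 8.15 ± 1.25 CPM (SD, n = 3). The single tested basal marker, Acta2, rose, and summed basal markers were at 0.631 to 1.46 CPM and 6.77 to 14.2 CPM. When CD24- replicate 1, 2 or 3 or CD24+ replicate 2 was left out, 2 basal markers were called higher. Of 4 tested endothelial markers, Cdh5 and Flt1 fell and 2 were not called, while Pecam1 had 9 reads and Kdr 2. The endothelial sums, 124 to 168 CPM and 79.4 to 94.8 CPM, were mostly Flt1, at 145 ± 23.6 and 84.3 ± 7.90 CPM (SD, n = 3). Pericyte and neural crest markers summed to 8.34 to 10.2 CPM and 4.29 to 5.51 CPM. The part of these genes in the results below was not tested, and in bulk RNA fewer cells of a type and less RNA per cell cannot be told apart.

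Of the 10 surface markers, 8 passed the filter on low counts, 4 rose, 3 fell and 1 was not called. These 7 calls stand beside 46.1% called among all genes tested, 23.8% higher and 22.3% lower. In 7 of the 8 the groups did not overlap, against 57.3% of all genes tested. Both counts of 7 include Cd24a, the gene of the sorted protein. The markers were also chosen with earlier results of these data known. These counts therefore do not show that markers differ more often than other genes. The 4 that rose, Cd34, Nt5e, Cd24a and Pdpn, did so by a log2 fold change of 2.83 to 3.36, and the 3 that fell, Ly6a, Procr and Cd44, by 0.30 to 0.81 on the log2 scale. Leaving out Cd24a, the sorted gene, the median over the other 7 was that of Eng, 0.08, against 0.02 over all genes tested. The CPM values of genes, those of the cell type markers above included, are scaled by TMM, edgeR's correction for differences in library composition. The limits for a count of 0 are not scaled.

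**Figure D1:**
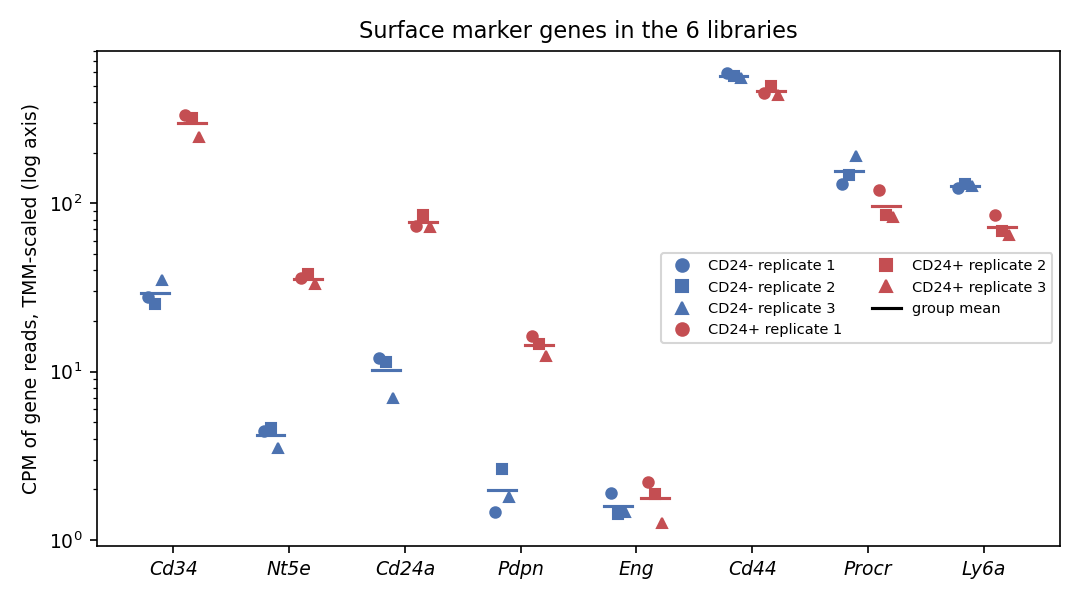
Level of the 8 tested surface markers in each library, in TMM-scaled CPM of gene reads on a log axis, with replicates as separate symbols and group means as bars. Cd34, Nt5e, Cd24a and Pdpn lie far higher in the CD24+ libraries, Eng overlaps, and Cd44, Procr and Ly6a lie lower.

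Cd24a, the gene of the sorted protein, stood at 12.1, 11.5 and 6.99 CPM in the CD24- libraries (replicates 1 to 3) and at 73.3, 85.5 and 72.5 CPM in the CD24+ libraries. The groups lay far apart, and CD24- replicate 3 was the lowest. The log2 fold change was 2.91 ± 0.17 (SE, edgeR adjusted p = 5.39e-07). Cd24a reads were therefore present in all 3 CD24- libraries, at 13.2% of the CD24+ mean. The reads lay at chr10:43298987-43304068 (mm9), mostly in the 3′ UTR. Reads whose middle base lay in coding sequence, here called coding reads, numbered 8, 9 and 0 in the CD24- and 38, 120 and 119 in the CD24+ libraries. Reads of the 3′ UTR were assigned in the same way. The log2 ratio of the group means was 3.49 for coding reads and 2.89 for 3′ UTR reads. Over the 6 libraries, the genes whose log2 CPM, centred on its mean, lay nearest to that of Cd24a were Xkr5 (Euclidean distance 0.143), Rangrf (0.276) and Mapk8ip1 (0.298). A small count was added before the log. In the CD24- libraries these genes stood at 0.563 to 1.16, 0.563 to 1.33 and 1.58 to 2.74 CPM, so the distances rest on few reads there.

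Cd34, a sialomucin of haematopoietic progenitors, endothelium and some stromal cells, was at 27.8, 25.3 and 34.8 CPM in CD24- and at 334, 320 and 248 CPM in CD24+ libraries. Each CD24+ library lay above every CD24- library, and CD24+ replicate 3 was the lowest of its group. The log2 fold change was 3.36 ± 0.15 (SE, edgeR adjusted p = 1.01e-07), and the ratio was 3.33 in coding and 3.44 in 3′ UTR reads. Nt5e, the ectonucleotidase that makes adenosine from AMP outside the cell, was at 4.42, 4.64 and 3.49 CPM in CD24- and at 36.2, 37.8 and 33.1 CPM in CD24+ libraries. Its replicates lay close together in both groups, with a log2 fold change of 3.08 ± 0.14 (SE, edgeR adjusted p = 1.21e-07). Pdpn, a mucin-like glycoprotein that binds the platelet receptor Clec1b and links to ezrin and moesin, was at 1.47, 2.65 and 1.80 CPM in CD24- and at 16.4, 14.6 and 12.3 CPM in CD24+ libraries. The CD24- values rest on 14, 28 and 16 reads, and the log2 fold change was 2.83 ± 0.23 (SE, edgeR adjusted p = 4.88e-06). Cd34 and Pdpn, like Fzd7, Pdgfrb and Acta2, are readable as gene names in the study's heat map of these same libraries, so their direction is no independent evidence. With limma on quantile-normalized log2(CPM + 10), which changes the scaling, the test and the offset together, the difference was 0.94 for Pdpn, 1.62 for Nt5e, 2.08 for Cd24a and 2.95 for Cd34. The offset of 10 is the size of the study's regularizer, which was added to coverage and not to CPM. With each distinct sequence counted once, Cd34 had a log2 fold change of 2.46, below Nt5e (2.98), Pdpn (2.72) and Cd24a (2.47), so the order of the 4 rises depends on this choice. Such a count is bounded by the different reads a gene can give, which can narrow the differences of abundant genes most. Over all libraries 12261 exactly matched Cd34 reads lay at 1749 positions, against 1816 at 1038 for Nt5e and 641 at 325 for Pdpn. Cd24a, Cd34, Nt5e and Pdpn stayed called in each of the 15 alternatives.

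Ly6a, the GPI-anchored Sca-1 antigen, was at 123, 129 and 127 CPM in CD24- and at 84.8, 68.6 and 65.0 CPM in CD24+ libraries. The CD24- replicates were nearly level and all lay above the CD24+ group. The log2 fold change was -0.81 ± 0.10 (SE, edgeR adjusted p = 1.19e-04). Procr, the endothelial protein C receptor, was at 131, 147 and 190 CPM in CD24- and at 120, 85.5 and 83.4 CPM in CD24+ libraries. CD24- replicate 1 and CD24+ replicate 1 were the closest, and the log2 fold change was -0.70 ± 0.16 (SE, edgeR adjusted p = 5.53e-03). In coding reads alone the Procr groups overlapped, with a log2 ratio of -0.64, against -0.73 in 3′ UTR reads.

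Cd44 was the most abundant of the markers in CPM, at 592, 570 and 559 CPM in CD24- and at 453, 500 and 443 CPM in CD24+ libraries. The groups were separate but close, with a log2 fold change of -0.30 ± 0.08 (SE, edgeR adjusted p = 0.0107). That call was lost when each distinct sequence was counted once (-0.20, adjusted p = 0.168) and when CD24- replicate 1 was left out (-0.28, adjusted p = 0.0596). The 35010 exactly matched Cd44 reads lay at 3561 positions, so counting sequences once can narrow its difference. Coding reads gave a log2 ratio of -0.49 and 3′ UTR reads -0.18.

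Eng, a TGF-beta and BMP co-receptor, was at 1.89, 1.42 and 1.47 CPM in CD24- and at 2.20, 1.86 and 1.26 CPM in CD24+ libraries. The groups overlapped, and the log2 fold change of 0.08 had a 95% interval of -0.60 to 0.77 (edgeR adjusted p = 0.842). The interval leaves out changes as large as those of the 4 genes that rose. Its coding reads gave a log2 ratio of -0.54 with overlapping groups, and its 3′ UTR reads 0.80 without overlap, from 0.721 ± 0.143 CPM (21 reads) to 1.25 ± 0.343 CPM (50 reads). Prom1, a pentaspan protein of membrane protrusions, had 5 reads in all, 4 in CD24+ replicate 2 and 1 in CD24+ replicate 3, and all 5 matched no annotated Prom1 transcript. Thy1, a GPI-anchored protein of T cells, neurons and fibroblasts, had 0 reads, both by annotation and by exact match to 2755 positions of its transcripts. Over all libraries that allows a level of up to 0.0416 CPM of unscaled gene reads (3 reads).

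**Figure D2:**
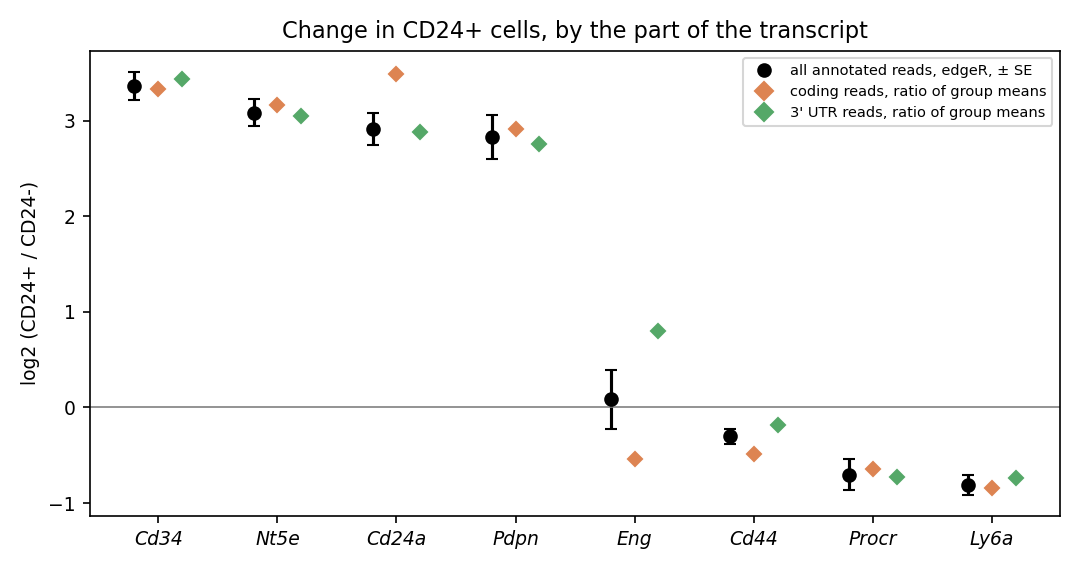
Change of each tested surface marker as log2 of CD24+ over CD24-, from the edgeR fit with its SE (black) and as ratios of group means for coding (orange) and 3′ UTR reads (green). The parts lie close together for Cd34, Nt5e, Pdpn, Procr and Ly6a, and furthest apart for Eng, which had few reads.

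Each marker was then set against Cd24a in the same library, as the log2 ratio of the CPM values. The ratio of Pdpn to Cd24a was -2.37 ± 0.586 in CD24- and -2.42 ± 0.225 in CD24+ libraries (SD, n = 3). For Nt5e it was -1.25 ± 0.231 and -1.11 ± 0.0814, and for Cd34 1.55 ± 0.663 and 1.955 ± 0.212. The groups overlapped in all 3, with differences of -0.06, 0.14 and 0.40 (2-sided exact permutation test, p = 0.9, 0.5 and 0.4). Each of these 3 overlaps rested on a single CD24- library: the groups no longer overlapped without replicate 3 for Cd34 and Nt5e and without replicate 1 for Pdpn. With each distinct sequence counted once, the Nt5e groups did not overlap either (0.49, exact permutation p = 0.1). Leaving out a single CD24- library moved the difference of Cd34 to 0.23 (replicate 1), 0.20 (replicate 2) or 0.79 (replicate 3), that of Nt5e to 0.04 without replicate 1 and 0.27 without replicate 3, and that of Pdpn to -0.39 without replicate 1 or 0.15 without replicate 3. The ratios of Ly6a, Procr, Cd44 and Eng to Cd24a were lower in every CD24+ library, with differences of -3.76, -3.65, -3.26 and -2.83 on the log2 scale. For these the exact permutation test gave p = 0.1, the smallest that 3 against 3 libraries allow. Since Cd24a itself was the sorted marker, a marker with no change of its own differs from it by this measure. Only 3.2% of the 11125 tested genes had a higher log2 fold change than Cd24a. The share of all genes separated from Cd24a in this way was not computed. These 7 ratios share the same Cd24a values and are not independent of each other.

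Per kilobase of exon positions that belong to that gene alone, the order of the levels in CD24- cells was Ly6a (131 CPM per kb), Cd44 (92.2), Procr (82.3), Cd24a (4.26), Cd34 (3.89), Pdpn (1.24), Nt5e (0.549) and Eng (0.430). The ranges of Cd44 and Procr, of Cd24a and Cd34, and of Nt5e and Eng overlapped. In CD24+ cells Ly6a (75.9 CPM per kb) and Cd44 (75.4) overlapped at the top. They were followed by Procr (51.4), Cd34 (40.8), Cd24a (31.8), Pdpn (9.10), Nt5e (4.79) and Eng (0.519), where Procr overlapped Cd34 and Cd34 overlapped Cd24a. The order depends on which annotated positions are counted. They include those of every annotated transcript: of 6782 Cd34 positions, 562 were coding, and 25.8% of all had a read. An alternative over coding positions alone was added after the data had been seen. In it, Cd34 stood at 166 CPM per kb and was the highest of the 8 in CD24+ cells. In CD24- cells Cd34 was then at 16.5 ± 2.74 CPM per kb and Cd24a at 2.26 ± 1.96 (SD, n = 3).

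Few Cd44 reads lay in the variable exons in either group. The longest coding form has 19 exons, of which exons 6 to 15 are variable. Of 34966 Cd44 reads inside exons, 194 lay in the 10 variable exons, 109 of them in exon 15. The share was 0.698%, 0.574% and 0.512% in CD24- and 0.323%, 0.609% and 0.496% in CD24+ libraries. The Wilson 95% interval, which covers counting error only, was 0.507% to 0.960% for CD24- replicate 1, the highest, and 0.170% to 0.613% for CD24+ replicate 1, the lowest. The groups overlapped, with means of 0.595% ± 0.0944 and 0.476% ± 0.144 (SD, n = 3, 2-sided exact permutation p = 0.4). Exon 15 was at 12.6 ± 2.95 CPM per kb in CD24- and 6.69 ± 1.58 in CD24+ cells (SD, n = 3). Its reads numbered 24, 21 and 14, and 5, 21 and 24. Constant exon 5 was at 234 ± 14.0 and 161 ± 10.6 CPM per kb. The other variable exons, with at most 17 reads each, went both ways, and no single exon was tested. Per kilobase, variable exons had 1.78% ± 0.391 of the reads of the 7 inner constant exons (all but the first and the last) in CD24- and 1.66% ± 0.476 in CD24+ cells (SD, n = 3, exact permutation p = 0.9). Esrp1, a splicing factor that favours variable exons of Cd44 in epithelial cells, was the annotation of no read under its current or older symbols, and Esrp2, listed under an older symbol, had 17 in all. Tra2b was left unmatched because its older symbol in the files is also one of another gene. Reads over exon junctions are mostly lost to the exact genome match, so the join itself was not counted.

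**Figure D3:**
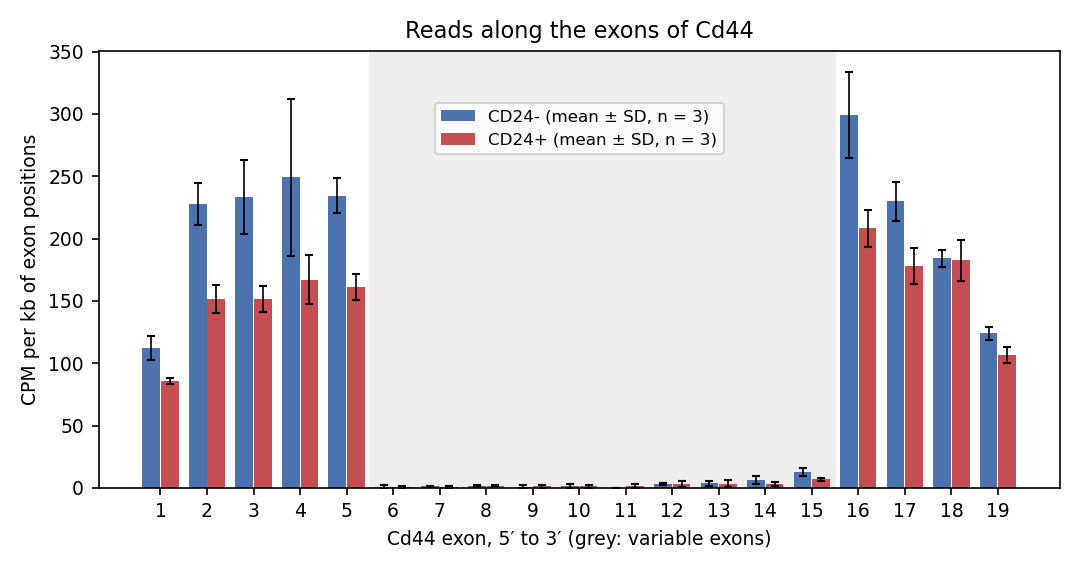
Reads along the exons of Cd44, in CPM per kilobase of exon positions, as group means with SD (n = 3). Constant exon 5 had 234 and 161 CPM per kb in CD24- and CD24+ cells, whereas the most read variable exon, 15, had 12.6 and 6.69.

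The upstream sequences of Cd34, Nt5e and Pdpn are shown because these are the other 3 markers that rose with Cd24a in CD24+ cells. They are the 250 bases before the RefSeq start (GRCm38.p6). RefSeq promoters were matched for 7 of the 10 markers. Capitals mark matches on either strand to any of 4 motifs. Of 32851 promoters of the same length, 32.7% hold the GC box GGGCGG, 12.4% the TATA box TATAAA, 6.02% the E-box CACGTG and 6.75% the AP-1 motif TGANTCA.
Cd34 upstream chr1:194938571-194938820 (+ strand): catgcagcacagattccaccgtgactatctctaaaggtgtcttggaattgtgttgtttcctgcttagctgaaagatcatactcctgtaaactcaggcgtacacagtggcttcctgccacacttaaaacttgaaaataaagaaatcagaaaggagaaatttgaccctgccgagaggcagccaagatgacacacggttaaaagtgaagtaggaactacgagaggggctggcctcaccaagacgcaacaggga
Nt5e upstream chr9:88327359-88327608 (+ strand): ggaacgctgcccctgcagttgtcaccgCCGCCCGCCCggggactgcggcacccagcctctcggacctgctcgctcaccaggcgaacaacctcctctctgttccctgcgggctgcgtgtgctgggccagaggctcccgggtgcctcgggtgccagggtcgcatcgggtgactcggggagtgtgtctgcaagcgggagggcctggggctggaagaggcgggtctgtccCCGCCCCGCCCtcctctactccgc
Pdpn upstream chr4:143299565-143299814 (- strand): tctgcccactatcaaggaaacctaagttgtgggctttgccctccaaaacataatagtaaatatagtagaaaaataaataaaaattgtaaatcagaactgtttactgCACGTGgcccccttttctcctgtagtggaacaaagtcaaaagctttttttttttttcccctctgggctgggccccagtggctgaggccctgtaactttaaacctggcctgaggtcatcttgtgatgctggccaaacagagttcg
The Nt5e window held GGGCGG 4 times, in overlapping pairs, at a GC content of 72%, the Pdpn window held CACGTG once, and the Cd34 window held none of the 4 motifs. The median GC content of all promoters was 52.4%, that of Cd34 46.4% and that of Pdpn 43.2%. The printed start of Nt5e is not the start of a GENCODE M21 transcript.

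Other genes of the same kind were described from lists written from general knowledge. Each list count below stands beside the 46.1% of all tested genes that were called, 23.8% higher and 22.3% lower. Among 28 other surface markers of stem and tumour-initiating cells, 20 were tested, 8 rose, 7 fell and 5 were not called, with a median log2 fold change of -0.12. Fzd7, a Wnt receptor, rose from 2.11 ± 0.492 to 19.4 ± 1.65 CPM (SD, n = 3, log2 fold change 3.17), Mcam by 2.13 and Alcam, an adhesion molecule, by 1.65. Ngfr fell by 2.30, Itga6, the laminin-binding integrin used with CD24 to sort mouse mammary stem cells, fell by 1.83, and Lgr6 fell by 1.51. Itgb1, its usual partner in that sort and picked here after its values were seen, rose from 931 ± 53.6 to 1181 ± 66.9 CPM (log2 fold change 0.34, edgeR adjusted p = 0.00719).

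Of 19 genes of the Ly6 and uPAR family, to which Ly6a belongs, 7 were tested, 2 rose and 4 fell. Ly6c1, a close paralog, fell by 0.80 and Lypd1 by 0.86, whereas Ly6e rose from 529 ± 90.1 to 840 ± 49.3 CPM (SD, n = 3, log2 fold change 0.67) and Lynx1 by 2.61. Ly6a shares 98 transcript positions with other genes, and its fall stayed called when reads at those positions were left out. Of 26 tested genes that build and attach the GPI anchor of Cd24a, Ly6a, Thy1 and Nt5e, 6 rose and 3 fell. Pigk and Pigt, subunits of the enzyme that attaches the anchor, rose by 1.07 and 0.49, and Pigp by 0.50, while Pigm fell by 0.76, Pgap2 by 0.78 and Piga by 0.32. These 9 calls became 4 without CD24- replicate 2, 5 without CD24- replicate 1 or CD24+ replicate 3, and 10 without CD24- replicate 3 (5 rises and 5 falls) or CD24+ replicate 1 (6 and 4). Among 6 tested ligands and raft kinases of CD24, 2 rose and 1 fell (2 without CD24+ replicate 1). Selp, P-selectin, which binds CD24, was at 156 ± 27.98 CPM in CD24- and 3.87 ± 0.776 CPM in CD24+ cells (SD, n = 3, log2 fold change -5.29). The kinases Fyn and Src rose by 1.44 and 0.47.

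Of 19 tested ligands, partners and splicing factors of Cd44, 6 rose and 4 fell. Has2, which makes hyaluronan, rose from 0.616 ± 0.125 to 5.03 ± 0.774 CPM (SD, n = 3, log2 fold change 3.001), Cemip by 2.49 and Spp1, osteopontin, by 1.80. Ezr, ezrin, which ties Cd44 and Pdpn to actin, fell from 433 ± 17.2 to 208 ± 16.2 CPM (log2 fold change -1.06), Hyal1 fell by 1.10 and Tra2a by 0.42. Msn, moesin, had a log2 fold change of -0.21 and was not called (edgeR adjusted p = 0.0564). Of 8 tested partners of Pdpn, 3 rose and 2 fell. Rhoc rose by 0.73, Cd9 by 0.40 and Arhgef2 by 0.39, while Ezr fell, as above, and Lgals8 fell by 0.36. With each distinct sequence counted once, none of these 3 rises was called, and 1 fall was.

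Of 14 tested genes of TGF-beta and BMP reception around Eng, 6 rose and 2 fell, and 4 fell without CD24- replicate 1 or without CD24+ replicate 2. Tgfb2 rose by 1.90, Id2 by 1.19, Tgfbr1 by 0.66 and Tgfbr2 by 0.35, while Acvr2b fell by 1.47 and Tgfb1 by 0.56. Acvrl1, the receptor that Eng works with in endothelium, had 1 read in all. Of 8 tested coagulation receptors and their ligands, Procr included, 3 rose and 4 fell. Thbd, thrombomodulin, which activates protein C beside Procr, rose from 0.872 ± 0.196 to 8.98 ± 1.48 CPM (SD, n = 3, log2 fold change 3.37), Pros1 by 1.21 and F3, tissue factor, by 0.92. Proc, protein C itself, was at 1.47 ± 0.406 CPM in CD24- and 0.0349 ± 0.0605 CPM in CD24+ cells, F2rl1 fell by 1.53 and F2r, the thrombin receptor, by 0.49.

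Of 8 tested genes of the extracellular adenosine pathway, Nt5e included, 3 rose and 4 fell. Adk, which removes adenosine inside the cell, rose by 0.78 and the transporter Slc29a1 by 0.29. The adenosine receptor Adora1 fell from 6.56 ± 0.952 to 0.714 ± 0.350 CPM (SD, n = 3, log2 fold change -3.39), the transporter Slc29a2 fell by 1.12 and Entpd5 by 0.48. Entpd1, the enzyme that makes the AMP on which Nt5e acts, was the annotation of no read under its current or older symbols, and the receptor Adora2b had 5 in all. Of 7 tested genes of prominins and cholesterol-rich protrusions, 2 rose (Ttyh2 by 1.30 and Ttyh3 by 1.13) and 2 fell (Flot2 by 0.39 and Cav2 by 0.29). Prom2, the paralog of Prom1, had 29 reads in all, none of them in a CD24+ library, and did not pass the filter.

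**Figure D4:**
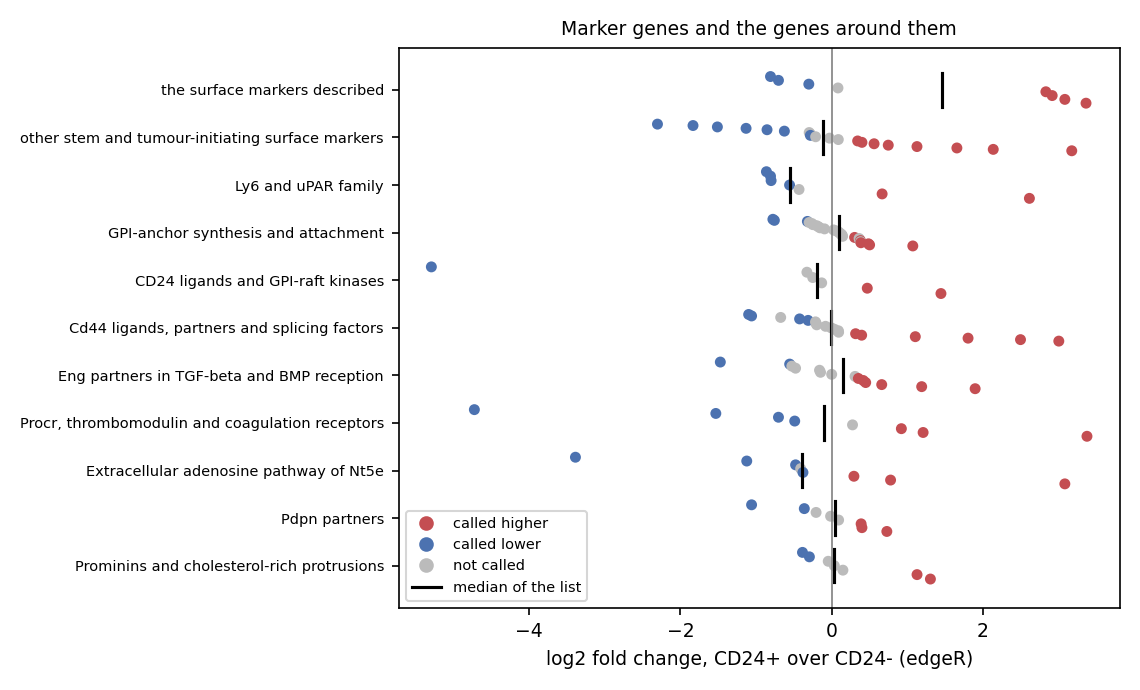
Log2 fold change in CD24+ over CD24- cells (edgeR) of the tested genes of each list other than the cell type marker lists, coloured by call, with the list's median, for the surface markers with Cd24a included, as a black bar. The surface markers described here fall into 4 genes above 2.8 and 4 at or below 0.08, and Selp, at -5.29, is the lowest gene shown.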

How the data were processed

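Single-end reads of unstranded TruSeq libraries were trimmed by the authors to 47 nt, identical reads were collapsed and matched exactly to the mouse genome (mm9 per the labels), and each was given 1 location and 1 annotation. Neither a mapping program nor an annotation source is named (not given in the sources used here). The deposited values are counts of each distinct read, not normalized and not pooled. An exact match loses most junction reads and reads over strain variants, and without strand, overlapping genes cannot be told apart.

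Counts were summed per annotation. Gene annotations held 71.8% to 74.3% of mapped reads, and reads on repeats, small RNA or nothing were left out. Genes passing filterByExpr were tested with edgeR 4.0.16 (TMM, quasi-likelihood F test, Benjamini-Hochberg adjustment over all genes, threshold 0.05) in R 4.3.3. The procedure was also run on simulated counts in which few genes changed, unlike these data, so that run does not measure its accuracy here. Exon, part and per-length values used reads matching GENCODE M21 transcripts (GRCm38) of 1 gene exactly. Library totals of 6491833 to 19100844 gene reads set the precision. Libraries of a group differed by more than sampling noise, least so CD24- replicates 1 and 2. The chi-square of their counts per degree of freedom was 1.75, against 9.87 to 16.1 for the other pairs within a group. Alternatives were DESeq2 1.42.0, limma 3.58.1 on quantile-normalized values, other scalings and filters, distinct reads, exact matches, a replicate block and leaving out each library. From each list were named at most the 3 largest rises and falls among called genes with a mean of at least 1 CPM in a group, and direct ligands, receptors or paralogs of the markers. The markers and lists were chosen with earlier results of these data known.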

Additional observations from a re-analysis of the deposited data

Results flagged for a closer look

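Some reads that match transcripts of a surface marker exactly, and of no other gene, carry another deposited annotation or none, and so lie outside the gene counts. There were 275 such reads for Procr, all without annotation, 207 for Nt5e, nearly all annotated to repeats, and 123 for Cd44, all annotated to a SINE repeat. They exceeded 3 reads in every library, the limit that a count of 0 allows, and made up 3.29%, 11.4% and 0.351% of the exactly matched reads of these genes. The groups hold 3 libraries each, too few for a check of single outlying values.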

How the results depend on the processing

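Of 230 values under alternative settings, 213 were taken as unchanged: tested genes that kept direction and call, other differences within 1 replicate SD, and counts within 1.5 times the reported count. Cd34, Nt5e, Cd24a, Pdpn, Ly6a and Procr were called in the same direction in all 15 alternatives, and Cd44 in 13. The number of genes called ranged from 4069 to 5358 when single libraries were left out, and 6 to 7 markers were called. It was 3697 with distinct sequences, 5066 with DESeq2, 5493 without a filter and 5222 on quantile-normalized values. The balance of higher and lower calls, 2649 and 2478 in the main fit, moved with the scaling. It was 3027 and 2113 with upper-quartile scaling, 2524 and 2638 on library totals without TMM, and 2384 and 2838 on quantile-normalized values. Requiring at least 1 CPM in 3 libraries selected the same number of genes (11125) and gave the same counts of calls, so it was no separate check. Eng, not called in any setting, changed sign when a CD24+ library was left out (-0.0417 without replicate 1, -0.0282 without replicate 2) and on quantile-normalized values (-0.0488), and ranged up to 0.304 without CD24+ replicate 3. Relative to Cd24a, the markers whose groups did not overlap numbered 4, and 5 with distinct sequences (Nt5e added). They numbered 5 without CD24- replicate 1 (Pdpn added) and 6 without CD24- replicate 3 (Cd34 and Nt5e added). Leaving out a library can only remove overlap, and no share over all genes was computed for these counts. Counting distinct sequences can narrow the differences of abundant genes, as said above. With distinct sequences Nt5e moved to 0.490 (exact permutation p = 0.1), Cd44 to -2.72, Ly6a to -3.05 and Eng to -2.26. Cd34 changed sign with distinct sequences (-0.0614), as did Pdpn (0.283). Pdpn also did without CD24- replicate 2 (0.0728) or 3 (0.151) and without CD24+ replicate 2 (0.00702) or 3 (0.0119), all within its spread, and was at -0.391 without CD24- replicate 1. Over coding positions alone, an alternative chosen after seeing the data, 3 of 8 ranks per length were kept in CD24- and 4 of 8 in CD24+ cells. With distinct sequences the calls among GPI-anchor genes became 4, among adenosine pathway genes 4 and among Pdpn partners 1, a fall. The causes were not tested. With the replicate block, 4493 genes and 7 markers were called, and no marker's call changed. Libraries with the same number did not deviate together (r = 0.0143, -0.251 and -0.310), so the numbers were not taken as pairs. Prom1, Thy1 and Eng had the fewest reads of the 10 markers (5, 0 and 117), and whether depth limits them was not tested.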
